A study of Mus musculus with 2 samples.

Results

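EGFP-high oligodendrocytes (OLGs) were droplets that held transcripts of myelin genes together with a high level of the EGFP transcript that marks the electroporated lineage. They were picked by their counts in 3' single-cell RNA-seq of 2 mouse glioblastomas (GBMs), 1 library per tumor. A barcode entered with at least 500 genes and a mitochondrial share under 20%. It was an EGFP-high OLG when Mog, Mag and Mobp together reached 10 unique molecular identifiers (UMIs) per 10000 mouse-gene UMIs (the scale called N below) and at least 5 UMIs, EGFP reached N of 40, C1qa, C1qb and C1qc together stayed under N of 5, and no Cd3d, Cd3e or Cd3g UMI was present. The rule found 65 barcodes in tumor 1 and 36 in tumor 2, 101 of 28409 barcodes that passed the limits on genes and mitochondrial share. That was 0.506% (95% exact binomial interval 0.390 to 0.644) of the barcodes of tumor 1 and 0.231% (0.162 to 0.320) of those of tumor 2.

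Both tumors were NPCTKO GBMs of C57BL/6 mice at 3 months of age. In this model, neural progenitor cells (NPCs) of the embryonic forebrain were electroporated in utero with piggyBac plasmids that carried Cas9, luciferase, guides against Trp53, Nf1 and another tumor suppressor gene, and a fluorescent lineage cassette, so cells of that lineage carry integrated transgenes whatever they become. The hosts also bore a tdTomato reporter switched on by a vascular Cre line, and the labels do not say which Cre line each tumor had. The libraries held 14302 and 18596 barcodes and 282961884 and 295366782 mouse-gene UMIs, and 51 barcode sequences occurred in both, none of them in an EGFP-high OLG. Since the replicates were 2 tumors of 1 group, no comparison was made between the tumors. Counting intervals below cover counting error only.

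OLGs wrap axons in myelin, a stack of membrane rich in the proteins MBP, MAG and MOG. They arise from oligodendrocyte progenitor cells (OPCs), which first become newly formed, premyelinating OLGs that switch on Enpp6, Bcas1, Tcf7l2 and Fyn, and then mature cells that add late genes such as Mal, Trf and Hapln2. OPCs are themselves offspring of NPCs, and many gliomas keep an OPC-like program.

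EGFP-low OLGs and GBM cells of the same tumors served for comparison, under the same limits on C1q and Cd3 UMIs. EGFP-low OLGs met the same myelin rule with EGFP N under 20 (59 and 33 barcodes). GBM cells had EGFP N of at least 40, at least 3 UMIs of Sox2, Olig2, Nes and Pdpn together and Mog, Mag and Mobp together under N of 5 (5007 and 2778 barcodes). A further 33 and 20 OLGs with EGFP N between 20 and 40 are called middle OLGs. T cells and tumor-associated macrophages (TAMs), which should not carry the electroporated plasmids, were set beside them as a background. Both were chosen without a limit on EGFP, so their sums hold EGFP-high barcodes as well as any free RNA.

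EGFP N, which the rule used, is given as a description. Among EGFP-high OLGs it ran from 40.2 to 424 with a median of 71.8 in tumor 1, and from 47.9 to 351 with a median of 140.3 in tumor 2. The medians of GBM cells were 103 and 139.8. EGFP-low OLGs had medians of 9.47 and 10.6, close to those of T cells at 8.21 and 9.43. The highest EGFP values outside the threshold were N of 39.9 in tumor 1 and 37.9 in tumor 2, and the lowest inside were 40.2 and 47.9. In all, 18 of 157 OLGs of tumor 1 and 6 of 89 of tumor 2 lay between N of 35 and 45, so the threshold cut a range rather than a gap.

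An EGFP N of 40 was reached by 41.4% of all OLGs in tumor 1 (95% exact binomial interval 33.6 to 49.5) and by 40.4% in tumor 2 (30.2 to 51.4). The share was 13.1% (9.71 to 17.2) and 6.37% (4.45 to 8.78) among T cells, and 19.2% (17.1 to 21.4) and 28.8% (26.9 to 30.8) among TAMs. Median depths were 17020 and 21347 UMIs for EGFP-high OLGs, 9458 and 9782 for EGFP-low OLGs, 12710 and 12106.5 for T cells and 17815 and 10416 for TAMs. These shares use the value that picked the members, over barcodes of 1 library per tumor, and are a description.

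**Figure D1:**
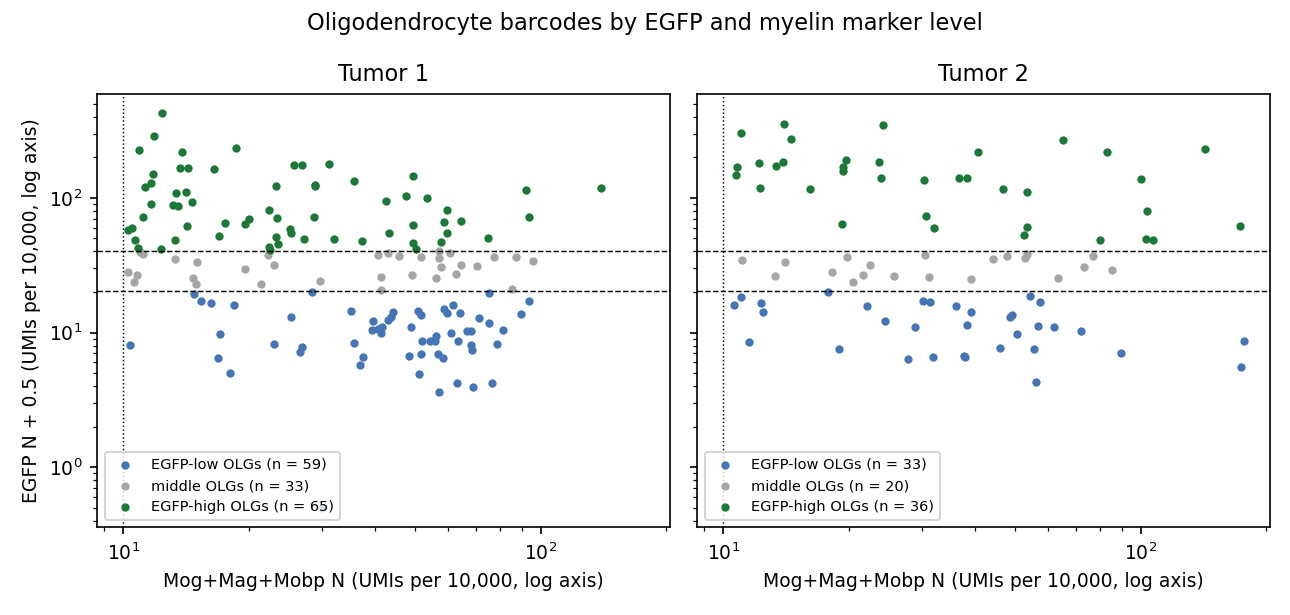
Each point is 1 OLG barcode of tumor 1 (left) or tumor 2 (right), with Mog+Mag+Mobp N on the x axis and EGFP N plus 0.5 on the y axis, both on log axes. Dashed lines mark EGFP N of 20 and 40 and the dotted line the myelin minimum of 10. The 65 and 36 EGFP-high OLGs crowd toward the left of the panels, with median Mog+Mag+Mobp N of 23.2 and 30.4, while the 59 and 33 EGFP-low OLGs have medians of 51.1 and 37.9.

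The label of these cells as mature OLGs was checked on genes outside the rule. The myelin program was present: summed over each tumor's EGFP-high OLGs, Mbp stood at 2993 and 6216 CPM, the UMIs of a gene scaled to 1 common total of mouse-gene UMIs, and Cnp at 2217 and 2149 CPM. The late genes were low beside those of EGFP-low OLGs and newly formed OLG genes were high. They are therefore called EGFP-high OLGs here, without the word mature.

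Luciferase and Cas9 transcripts come from the same electroporated pool but were no part of the rule. In tumor 1, EGFP-high OLGs held 365 such UMIs, or 230.4 CPM (95% exact Poisson interval 207 to 255), in 45 of 65 barcodes. GBM cells of that tumor were at 180.3 CPM (178 to 183), EGFP-low OLGs at 32.5 CPM (21.2 to 47.6), T cells at 47.3 CPM (42.1 to 52.9) and TAMs at 46.0 CPM (43.5 to 48.6). A single barcode held 83 of the 365 UMIs, and without it the members were at 179 CPM (159 to 202). Thinned to 5000 UMIs each, 39.0% of 63 EGFP-high OLGs kept a luciferase or Cas9 UMI, against 43.8% of 4927 GBM cells, 12.4% of 51 EGFP-low OLGs and 10.4% of 317 T cells (before thinning, 69.2%, 75.7%, 25.4% and 23.9%). The CPM of EGFP-low OLGs was thus under that of T cells and their thinned share slightly over it, while the CPM interval of EGFP-high OLGs did not overlap that of T cells.

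In tumor 2 these transcripts were scarce. EGFP-high OLGs held 6 UMIs in 4 of 36 barcodes, 3 of them in 1 barcode, for 7.44 CPM (2.73 to 16.2). GBM cells were at 7.22 CPM (6.57 to 7.92) and T cells at 2.00 CPM (1.22 to 3.09), while EGFP-low OLGs had 0 UMIs, which allows up to 8.09 CPM. At this depth no difference between the OLG classes was detectable. The tdTomato reporter of the hosts gave 2 UMIs in EGFP-high OLGs of tumor 1 and 0 in those of tumor 2.

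**Figure D2:**
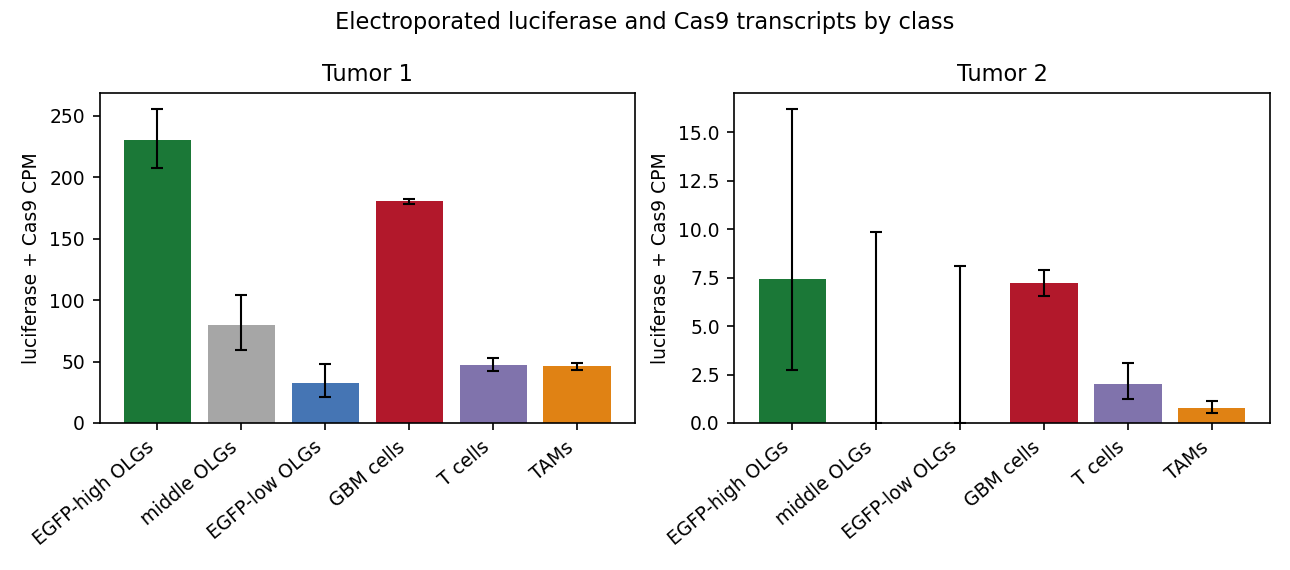
Bars give luciferase plus Cas9 CPM summed over each class in tumor 1 (left) and tumor 2 (right), and error bars the 95% exact Poisson interval. In tumor 1, EGFP-high OLGs (230.4 CPM) and GBM cells (180.3 CPM) stand above the other 4 classes, and in tumor 2 the 7.44 CPM of EGFP-high OLGs carry an interval of 2.73 to 16.2 that holds the 7.22 CPM of GBM cells.

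The first comparison asked how EGFP-high OLGs differed from OLGs of the same tumors that lacked high EGFP. Counts were summed per tumor and class, and 13342 genes outside the rule went into an edgeR quasi-likelihood fit with the tumor as a block and Benjamini-Hochberg adjustment. No gene was higher at an adjusted p under 0.05 (0%) and 1 was lower (0.00750%), with 1044 genes (7.82%) at an unadjusted p under 0.05. Under DESeq2, 30 genes were higher and 96 lower, 126 of 13343 gene entries, of which 6730 had no adjusted p. The single gene that fell was Kctd13, which encodes an adaptor of a ubiquitin ligase (chr7:126928879-126945631 in GRCm38). It stood at 109 and 44.6 CPM in EGFP-high OLGs against 339 and 303 CPM in EGFP-low OLGs, lower in both tumors, and fell by 2.18 on the log2 scale (SE 0.27, adjusted p = 0.0464). Its call was lost without the block, with 3 classes in the fit, without likely doublets, with a stricter quality limit and with members low in GBM genes, at adjusted p from 0.0651 to 1.

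Newly formed OLG genes stood higher in EGFP-high OLGs. All 12 tested members of that list had a fold above 0 (54.2% over all genes), 11 were higher in both tumors (27.9% over all genes) and 6 had an unadjusted p under 0.05 (4.25% over all genes in that direction). The median log2 fold was 1.08, against 0.05 over all genes. None of the 12 passed the adjusted threshold in edgeR's quasi-likelihood test with Benjamini-Hochberg adjustment. Under DESeq2 2 did (30 higher and 96 lower of 13343 over all gene entries, 6730 of them without an adjusted p). So the levels of single genes below are values, not calls.

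Tcf7l2, a transcription factor of the Wnt pathway that marks newly formed OLGs (chr19:55741820-55933654), was at 158 and 113 CPM in EGFP-high OLGs, 61.3 and 32.9 CPM in EGFP-low OLGs and 37.9 and 26.03 CPM in GBM cells. The groups did not overlap, and the log2 fold over EGFP-low OLGs was 1.45 (SE 0.29, adjusted p = 0.188 in edgeR's quasi-likelihood test). Fyn, a kinase that starts myelin formation after contact with the axon (chr10:39368855-39565381), was at 433 and 374 CPM against 145 and 140.3 CPM in EGFP-low OLGs and 279.8 and 166 CPM in GBM cells, again with no overlap. Its log2 fold over EGFP-low OLGs was 1.44 (SE 0.25, adjusted p = 0.155 by the same edgeR test).

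Enpp6, a choline phosphodiesterase restricted to premyelinating cells among OLGs (chr8:46986887-47096762), was at 174 and 294 CPM against 90.0 and 134 CPM in EGFP-low OLGs, and at 4.91 and 10.2 CPM in GBM cells. Bcas1, which marks OLGs at the onset of myelination, was at 669 and 1753 CPM against 356 and 708 CPM in EGFP-low OLGs. The classes did not overlap for Enpp6, and for Bcas1 the order held within each tumor but not across them. Bmp4, a ligand made by immature OLGs, was at 76.4 and 18.6 CPM against 22.5 and 6.58 CPM. Rras2, a small GTPase, was at 27.8 and 28.5 CPM against 10.0 and 11.0 CPM. The EGFP-low values rest on few UMIs, 18 and 3 for Bmp4 and 8 and 5 for Rras2. Nfasc, the neurofascin of axon contacts, went in opposite ways in the tumors, with 513 and 526 CPM in EGFP-high OLGs against 608 and 178 CPM in EGFP-low OLGs.

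Late OLG genes went the other way. Of the 18 tested genes of mature OLGs that encode no myelin protein, 17 had a fold below 0 (45.8% over all genes), 15 were lower in both tumors (22.0% over all genes) and 12 had an unadjusted p under 0.05 (3.58% over all genes in that direction). Their median log2 fold was -1.35, and none passed the adjusted threshold in edgeR. Under DESeq2 8 did (30 higher and 96 lower of 13343 over all gene entries). Trf, transferrin, which mature OLGs secrete to carry iron (chr9:103204001-103230444), was at 2291 and 681 CPM in EGFP-high OLGs against 3826 and 6228 CPM in EGFP-low OLGs. Hapln2, a link protein of the node of Ranvier, was at 95.3 and 80.6 CPM against 256 and 331 CPM. Ppp1r14a, an inhibitor of myosin phosphatase, was at 453 and 128 CPM against 1158 and 794 CPM. In all 3 genes both tumors of EGFP-high OLGs lay below both tumors of EGFP-low OLGs.

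Anln, an actin-binding protein that scaffolds septins in myelin, had the lowest fold among the late genes named here, at 50.5 and 6.20 CPM against 169 and 219 CPM (log2 fold -2.99, SE 0.49, adjusted p = 0.140 in edgeR's quasi-likelihood test). Apod, a lipocalin of mature OLGs, was at 2425 and 1582 CPM against 3754 and 14673 CPM, with 34.2% of its UMIs in tumor 2 members from 1 barcode. Ptgds, prostaglandin D2 synthase, was at 10215 and 3256 CPM against 9796 and 4174 CPM (log2 fold -0.21, SE 0.27).

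**Figure D3:**
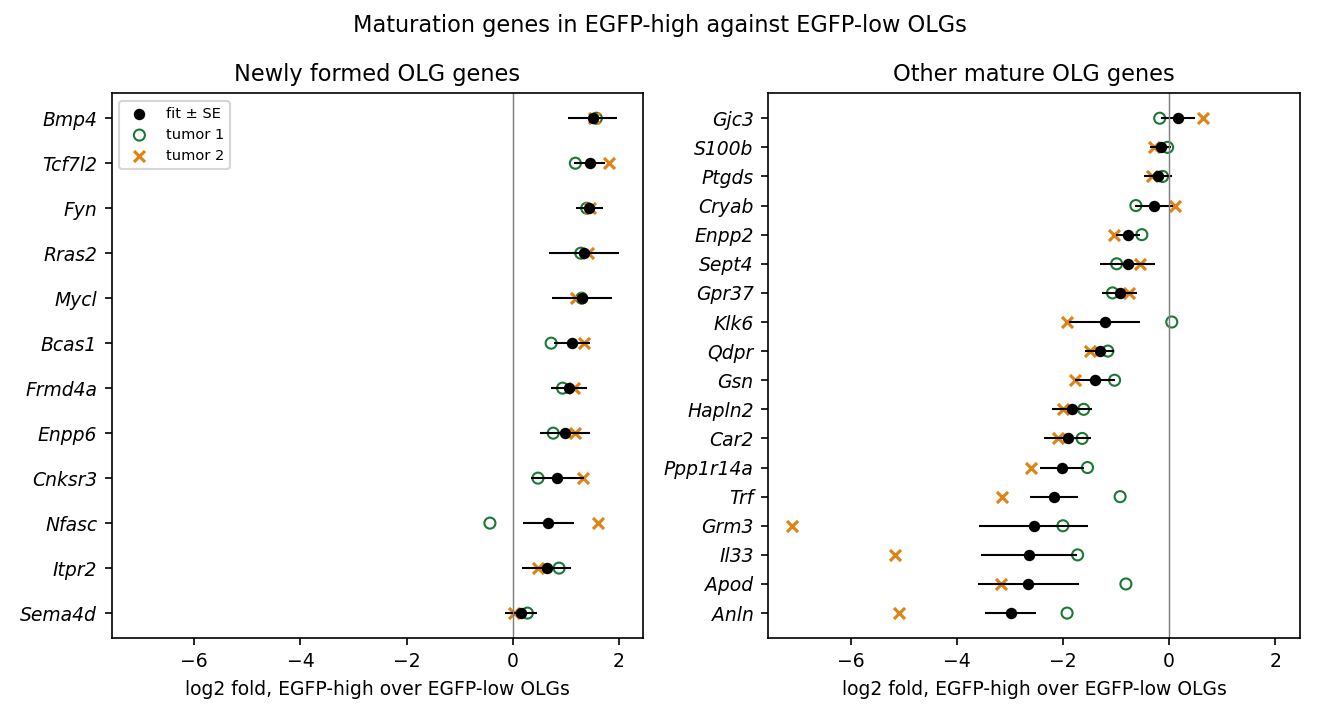
Log2 folds of EGFP-high over EGFP-low OLGs are shown for the 12 newly formed OLG genes (left) and the 18 other mature OLG genes (right). Black points with bars are the edgeR fit and its SE, open circles tumor 1 and crosses tumor 2. All 12 fitted folds on the left are above 0 and 17 of 18 on the right are below 0.

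The myelin genes themselves divided. The myelin enzyme Cnp was close between the OLG classes, with a log2 fold of -0.40 (SE 0.24). Mbp, a structural protein of compact myelin, was lower in EGFP-high OLGs of tumor 1 and higher in those of tumor 2. Its fitted log2 fold of 0.20 (SE 0.30) joins these opposite directions. Cldn11, the tight junction protein of myelin, was at 1659.8 and 1645 CPM against 2204 and 1583 CPM. Genes switched on late stood apart. Mal, a raft protein of late myelin (chr2:127633226-127656695), was at 624 and 208 CPM against 1689.6 and 1624 CPM (log2 fold -2.29, SE 0.47, adjusted p = 0.188 in edgeR). Ermn, a cytoskeletal protein of late OLGs, was at 387 and 117 CPM against 1007 and 894 CPM, and Aspa, the enzyme that cleaves N-acetylaspartate for lipid synthesis, at 170.5 and 28.5 CPM against 429 and 329 CPM. Over the 18 tested myelin proteins and lipid enzymes the median log2 fold was -0.42, with 16 folds below 0 (45.8% over all genes), 11 lower in both tumors (22.0%) and 5 at an unadjusted p under 0.05 in that direction (3.58%). None passed the adjusted threshold in edgeR, and 3 did under DESeq2 (30 higher and 96 lower of 13343 over all gene entries).

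Of the factors that define the lineage, Sox10 and Olig1 were level. Sox10, which is needed throughout the lineage, was at 275 and 260.4 CPM against 269 and 230.2 CPM (log2 fold 0.03, SE 0.21), and Olig1 at 776 and 799.7 CPM against 852 and 688 CPM (log2 fold -0.03, SE 0.25). Nkx6-2, a late homeobox factor, was lower in both tumors, at 263 and 348 CPM against 476 and 579 CPM. Of 16 reactive OLG genes 12 had a fold below 0 (45.8% over all genes), with a median of -0.85, and none passed the adjusted threshold in edgeR. Among them Apoe, a lipid carrier, was at 3553 and 1577 CPM against 3871 and 4744 CPM, and C4b, a complement component, at 976 and 392 CPM against 1223 and 1022 CPM.

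No gene of the OPC or glioma lists passed the adjusted threshold in edgeR. Of 20 glioma genes outside the rule, 16 had a fold above 0 over EGFP-low OLGs (54.2% over all genes), 10 in both tumors (27.9%), with a median of 0.59. Among members of depth matched to EGFP-low OLGs, only 6 of the 20 had a fold above 0, with a median of -0.20 against -0.18 over all genes. Marcks, a membrane-actin linker, was at 1205 and 1059 CPM against 408 and 283 CPM, and the progenitor factor Sox4 at 629 and 549 CPM against 249 and 274 CPM. All 10 OPC genes had a fold above 0 (54.2% over all genes), but 2 in both tumors (27.9%). Gpr17, the receptor of committed progenitors, was at 152 and 59.5 CPM against 51.3 and 21.9 CPM, whereas Vcan, a proteoglycan, was at 311 and 48.4 CPM against 55.0 and 59.2 CPM. Ptprz1, an OPC phosphatase, was at 371 and 208 CPM against 241 and 237 CPM. Ccnd1, a G1 cyclin, was at 499 and 198 CPM against 134 and 101 CPM, and 30.8% of its UMIs in tumor 1 members were in 1 barcode.

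Middle OLGs were set beside both classes, and depth differed among the 3. The median summed N of the 12 newly formed genes was 9.94 in EGFP-low, 14.9 in middle and 13.2 in EGFP-high OLGs of tumor 1, and 10.6, 15.7 and 22.0 in tumor 2. The median summed N of the 18 other mature genes went from 377 through 234 to 203 in tumor 1 and from 426 through 130 to 94.1 in tumor 2. Median UMIs per barcode were 9458, 17587 and 17020 in tumor 1 and 9782, 18457 and 21347 in tumor 2. The part of depth in the gene differences was not tested on this scale. With members no deeper than the upper quartile of EGFP-low OLGs (29 and 9 barcodes), all 12 newly formed genes still had a fold above 0, with a median of 1.13, and 16 of 18 other mature genes a fold below 0, with a median of -1.01.

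Markers of TAMs, T cells and vascular cells were low in EGFP-high OLGs. The 10 TAM markers summed to 128 and 157 CPM, against 139 and 221 CPM in EGFP-low OLGs, 128 and 232 CPM in GBM cells and 10883 and 10926 CPM in TAMs. The 8 T cell markers summed to 9.47 and 4.96 CPM against 1.25 and 4.38 CPM in EGFP-low OLGs and 1357 and 1313 CPM in T cells, with Cd2 at 0 in both tumors. Vascular markers summed to 17.7 and 13.6 CPM against 5.002 and 4.38 CPM in EGFP-low OLGs and 42.9 and 39.2 CPM in GBM cells, with Tek, Pdgfrb, Kcnj8 and Cdh5 at 0 in both tumors. Neuron markers summed to 393 and 585 CPM against 376 and 388 CPM in EGFP-low OLGs. Most of these UMIs were those of 1 gene, Tubb3, with 509 and 451 in EGFP-high OLGs and 283 and 175 in EGFP-low OLGs. Of the 55 UMIs of the neuronal gene Stmn2 in tumor 1 members, 45 were in 1 barcode. Of 9 tested neuron markers, 8 had a fold above 0 over EGFP-low OLGs (54.2% over all genes), 6 in both tumors (27.9%). Against GBM cells, 2 passed the adjusted threshold in edgeR as higher (6.29% over all genes). No class of neurons was set beside them.

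A droplet that caught an EGFP-low OLG and a GBM cell would meet the rule, so shared droplets were examined. Scrublet's automatic threshold marked 0 and 185 of 12854 and 15555 barcodes and was not used. Removing instead the highest Scrublet scores, 11.4% and 14.9% of barcodes by loading, took 10.8% and 16.7% of EGFP-high OLGs, 1.69% and 9.09% of EGFP-low OLGs and 10.8% and 13.97% of GBM cells. Median UMIs of GBM cells were 21565 and 19158, beside 17020 and 21347 in EGFP-high OLGs and 9458 and 9782 in EGFP-low OLGs. Median Mog+Mag+Mobp UMIs were 46 and 55.5 in EGFP-high OLGs and 46 and 42 in EGFP-low OLGs. The part of shared droplets in the gene differences was not tested beyond these values. After this removal the 12 newly formed genes kept a median log2 fold of 1.08 and the other mature genes one of -1.45.

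Written as a mix of the EGFP-low OLG and GBM profiles of the same tumor over all genes outside the rule, the summed profile of EGFP-high OLGs took a GBM share of 42.3% and 47.0% by non-negative least squares, or 39.1% and 35.7% by likelihood. A mix share was also fitted to each barcode, from 0 for the EGFP-low OLG profile to 1 for the GBM profile. Its median was 0.336 and 0.314 in EGFP-high OLGs, 0.110 and 0.516 in middle OLGs, at most 0.0158 in EGFP-low OLGs of either tumor and close to 1 in GBM cells, the last 2 classes being the reference profiles. Of the EGFP-high OLGs, 28 and 14 had a share under 0.25, 20 and 13 from 0.25 to 0.5, and 17 and 9 of 0.5 and over. Within 0.05 of the boundary at 0.25 lay 4 and 5 members, and near that at 0.5 lay 10 and 4, so these are ranges and not types. Genes used for the share differ between the ranges by construction, and their values are descriptions.

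**Figure D4:**
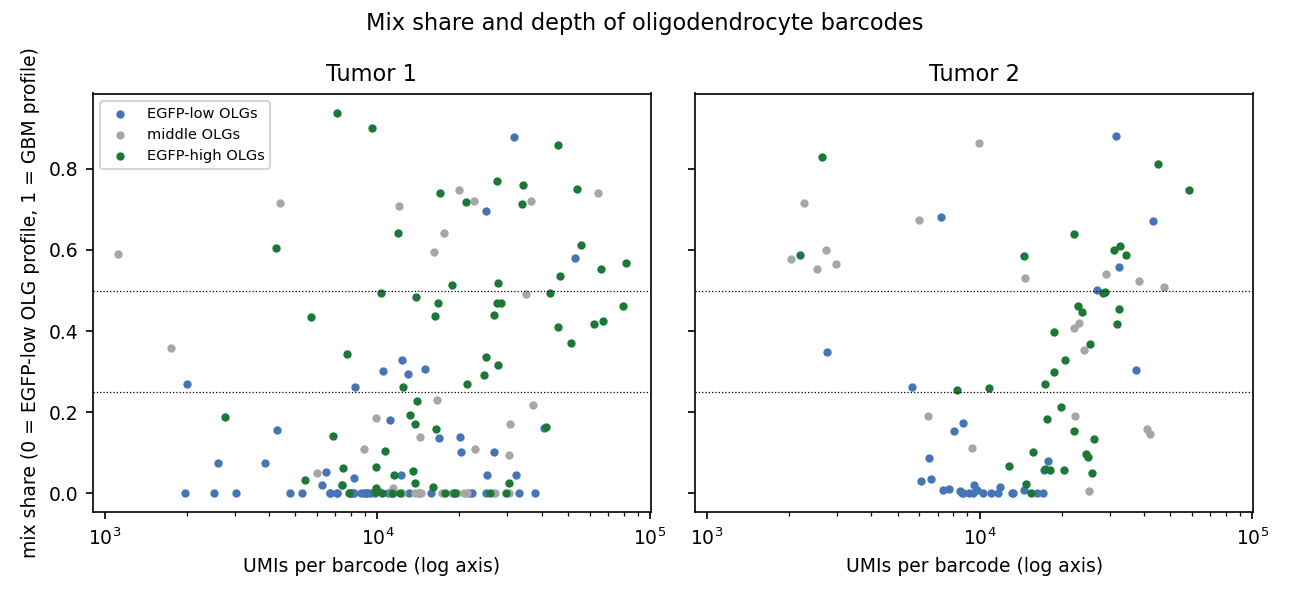
Each point is 1 OLG barcode of tumor 1 (left) or tumor 2 (right), with UMIs on a log x axis and the mix share on the y axis. Dotted lines mark mix shares of 0.25 and 0.5. EGFP-high OLGs spread over the whole range (medians 0.336 and 0.314), while most EGFP-low OLGs (50 of 59 and 25 of 33) lie under 0.25.

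EGFP-high OLGs with a mix share under 0.25 had 12599 and 18930 median UMIs and Mog+Mag+Mobp N of 45.5 and 74.2, so those of tumor 2 were deeper than EGFP-low OLGs and higher in these markers. Their late genes were above those of all members, with Mal at 980 and 454 CPM, Trf at 4257 and 1151 CPM and Klk6, a protease of reactive and mature OLGs, at 1017 and 530 CPM. In tumor 1 they held 139 luciferase or Cas9 UMIs in 16 of 28 barcodes. One barcode had 83 of these, and the others gave 142 CPM (95% exact Poisson interval 107 to 184), above EGFP-low OLGs (32.5 CPM) and T cells (47.3 CPM). Thinned to 5000 UMIs, 34.2% of 27 such barcodes kept a UMI, against 12.4% of EGFP-low OLGs. In tumor 2 only 4 such UMIs were present in them, 3 in 1 barcode.

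At the other end, members with a mix share of 0.5 and over were deep (27787 and 31031 median UMIs) and low in Mog+Mag+Mobp N (13.7 and 12.2). In absolute terms their median Mog+Mag+Mobp UMIs were 38 and 36, beside 46 and 42 in EGFP-low OLGs. In tumor 2 these 9 barcodes held Bcas1 at 2256 CPM, Enpp6 at 452 CPM, Fyn at 670 CPM, Rnd2 at 649 CPM and Sirt2 at 4862 CPM, with Mal at 0 UMIs, Trf at 74.0 CPM and Ppp1r14a at 8.22 CPM. EGFP-low OLGs of that tumor, in contrast, had Mal at 1624 CPM, Trf at 6228 CPM and Sirt2 at 1339 CPM. In tumor 1 the 17 such barcodes held both kinds of gene, with Enpp6 at 218 CPM and Fyn at 607 CPM beside Mal at 384 CPM and Trf at 1087 CPM. These genes entered the mix share that set the ranges. No test was run between the ranges.

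Some genes lay outside the range spanned by EGFP-low OLGs and GBM cells. Among 3149 genes at 50 CPM or more in both tumors in at least 1 of the 3 classes, EGFP-high OLGs stood in both tumors at more than 1.5 times the higher of the other classes for 26 (0.826%), and at less than the lower class divided by 1.5 for 1 (0.0318%), Prc1. EGFP-high OLGs were 1 of the 3 classes, so a gene could enter through its level in them alone. Most of the 26 did so, among them Tcf7l2, Frmd4a, Tmem163, Pik3r3, Dct, Ccl5 and Syt4. The count of 26 thus largely follows from that choice, and the counts of 26 and 1 are a description. The 26 held 4 newly formed OLG genes, Tcf7l2, Fyn, Enpp6 and Frmd4a. The genes named next were chosen after their values were seen. Rnd2, a small GTPase of the Rnd family, was at 302 and 477 CPM against 133 and 215 CPM in EGFP-low OLGs and 80.6 and 78.7 CPM in GBM cells. Sirt2, a tubulin deacetylase enriched in OLGs, was at 1388 and 4246 CPM against 899 and 1339 CPM and 397 and 453 CPM. Tns3, a focal adhesion protein, was at 275 and 183 CPM against 116 and 61.4 CPM and 122 and 45.9 CPM, and Pdcd4, a translation inhibitor, at 241 and 253 CPM against 92.5 and 72.3 CPM and 82.2 and 52.1 CPM.

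For 2 of the 26 genes 1 barcode held over 50% of the UMIs in a tumor. These were Dct, a melanin enzyme, with 50.8% in tumor 1, and the chemokine Ccl5, with 364 of 389 UMIs in tumor 1 and 142 of 159 in tumor 2 from 1 barcode each. In 21 of the 26 no barcode held more than 25% in either tumor. Because some GBM cells are OPC-like, the 26 were also set beside GBM cells with Gpr17 N of at least 5 (471 and 32 barcodes). In those cells Fyn was at 653 and 994 CPM and Bcas1 at 1184 and 3100 CPM, above EGFP-high OLGs, while Enpp6 was at 13.9 and 89.0 CPM and Tcf7l2 at 53.7 and 66.7 CPM. Of the 26 genes, 18 were higher in EGFP-high OLGs than in these GBM cells in both tumors. The 26 were chosen as higher than in GBM cells, and the cells with Gpr17 are part of that class. The count of 18 partly follows from that choice and is a description.

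**Figure D5:**
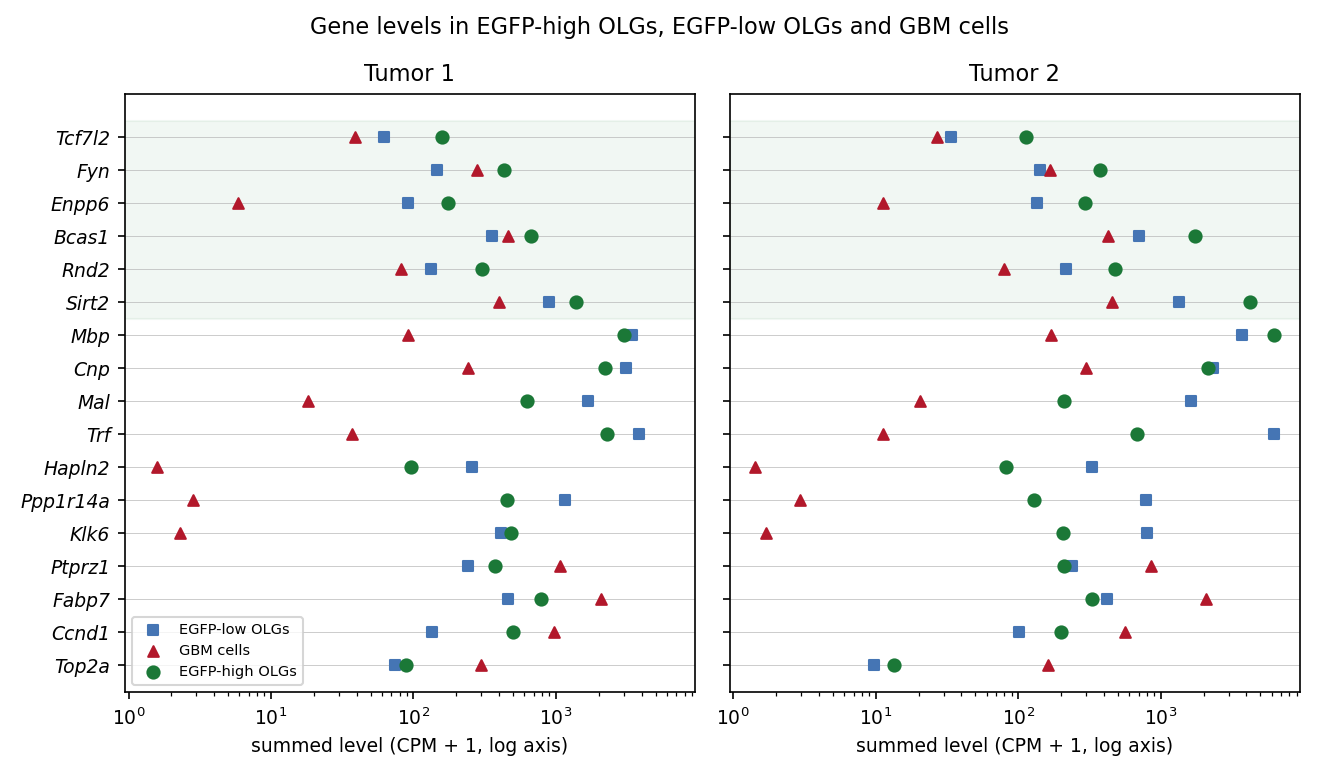
Summed CPM plus 1 (log axis) of 17 genes in EGFP-high OLGs (circles), EGFP-low OLGs (squares) and GBM cells (triangles) of tumor 1 (left) and tumor 2 (right). The shaded genes were higher in EGFP-high OLGs than in both other classes, such as Tcf7l2 at 158 and 113 CPM, while Mal, Trf, Hapln2 and Ppp1r14a lay between those classes.

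The second comparison set EGFP-high OLGs against GBM cells, which share the EGFP threshold. The fit tested 13338 genes outside the rule, and 839 (6.29%) were higher and 476 (3.57%) lower, 9.86% in all, at an adjusted p under 0.05 in edgeR's quasi-likelihood test with the tumor as a block. Without the block, 203 were higher and 11 lower. Members were chosen for myelin genes and GBM cells against them, so higher levels of other myelin genes describe that choice. All 18 tested myelin proteins and lipid enzymes, 16 of 18 other mature genes and 9 of 12 newly formed genes were higher, and 18, 18 and 11 had a fold above 0 (43.2% over all genes). The largest folds were those of Tmem125, a membrane protein gene of OLGs, at 77.7 and 86.8 CPM against 0.261 and 0.208 CPM (log2 fold 8.53, SE 0.41), of Klk6 (log2 fold 8.46, SE 0.88) and of Ermn (8.26, SE 0.99). Further genes among the 12 largest were Tmem151a, Opalin, Hapln2, Car14, Il12rb1, Ppp1r14a, Ptgds and Kndc1, with log2 folds from 6.39 to 7.80.

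Genes of cell division fell most. Of 20 genes of G2 and M phase, 18 were lower than in GBM cells (3.57% over all genes), with a median log2 fold of -2.55. Of 20 S phase genes, 4 were lower (3.57% over all genes), with a median of -1.06. All 20 S phase genes had a fold below 0 (56.8% over all genes) and were lower in both tumors (42.4% over all genes). The 12 largest falls held the mitotic genes Prc1, Cenpf, Plk1, Ube2c, Cdc20, Aspm, Ccnb1, Ccna2, Cdk1 and Sgol2a, with log2 folds from -3.35 to -2.55, and 2 others, Emid1 and Igfbp2. Among members of matched depth the calls of Plk1, Sgol2a and Emid1 were lost, at adjusted p of 0.109, 0.0673 and 0.278 in edgeR, and the log2 fold of Emid1 was -1.63. Prc1, a spindle midzone protein, was at 15.2 and 1.24 CPM in EGFP-high OLGs against 107 and 86.7 CPM in GBM cells (log2 fold -3.35, SE 0.48, adjusted p = 0.00120 in edgeR). Summed over the G2 and M list, EGFP-high OLGs were at 556 and 231 CPM, EGFP-low OLGs at 448 and 309 CPM and GBM cells at 2171 and 2150.1 CPM. Against EGFP-low OLGs, 12 of these 20 genes had a fold above 0 (54.2% over all genes), with a median of 0.09. An unadjusted p under 0.05 in edgeR was reached by 2, both lower (3.58% over all genes in that direction).

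OPC genes were lower in EGFP-high OLGs than in GBM cells for 6 of 10 (3.57% over all genes), with a median log2 fold of -1.62. Ptprz1 was at 371 and 208 CPM against 1059.9 and 849 CPM (log2 fold -1.70, SE 0.29, adjusted p = 0.00340 in edgeR). Of the glioma genes outside the rule 6 of 20 were lower (3.57% over all genes), with a median of -1.33. Among them was Fabp7, a lipid carrier of radial glia and glioma, at 779 and 327 CPM against 2087 and 2070.2 CPM. Ccnd1 fell by 1.19 on the log2 scale (SE 0.30, adjusted p = 0.0299 in edgeR; 0.0579 without likely doublets). The edited genes gave no call. Trp53 was at 39.8 and 38.4 CPM in EGFP-high OLGs, 36.3 and 24.1 CPM in EGFP-low OLGs and 54.9 and 53.1 CPM in GBM cells. Nf1 was at 61.9 and 31.0 CPM, 48.8 and 32.9 CPM and 75.05 and 29.6 CPM in the same order. Transcript level does not show whether a gene was edited, and no guide sequence was read in these cells.

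Limits of the members touch the first comparison most. When members were kept only if Sox2, Nes, Pdpn, Egfr and Vcan together were under 0.25 of the GBM median (20 and 12 barcodes), the median fold of the 12 newly formed genes was 0.32 with 8 above 0, and Fyn, Enpp6, Bmp4, Rnd2 and Pdcd4 had folds below 0. The other mature genes kept a median of -0.69.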

How the data were processed

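Cells were dissociated from 2 tumors and barcoded by droplet 3' RNA-seq (10x, kit V2). The deposited UMI counts per gene and barcode were made by the authors with Cell Ranger 4.0.0 on mm10 (GRCm38) with transgene sequences added, unfiltered beyond cell calling and unnormalized. UMI counts were used as deposited. Transgenes stayed out of totals. The submitters' Seurat clusters were not used here.

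The members and the gene lists were chosen with earlier results of these data known. Counts were summed per tumor and class (classes with at least 20 barcodes in each tumor), 6 classes in 1 fit. They were tested with edgeR 4.0.16 (filterByExpr, TMM, glmQLFTest, tumor as a block, Benjamini-Hochberg) in R 4.3.3, with DESeq2 1.42.0 as an alternative. Rule genes were left out of tests. Both classes of 1 tumor came from 1 animal, and deviations of the classes correlated in every pair (0.222 to 0.769). Simulated data were used to test the scripts. Levels are CPM of mouse-gene UMIs, compared within a gene. Doublet scores came from Scrublet in scanpy 1.11.5. Depth differed between the OLG classes, and deeper sums carry less counting error.

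Genes named were the rule's markers, transgenes and edited genes, the 12 largest folds per direction and comparison (adjusted p under 0.05, same sign in both tumors, at least 20 CPM in both tumors in the higher class) and, from each list, members with the highest levels or largest folds. Rnd2, Sirt2, Tns3, Pdcd4, Ccl5, Dct, Frmd4a and the mix share ranges and the limit of 50 CPM in any of 3 classes were chosen after their values were seen. One edited gene and 2 other genes that the rule names are not reported here. Results of lists not described: p53 targets, RAS-MAPK feedback, cholesterol synthesis, astrocyte, forebrain position and immediate early genes had median log2 folds over EGFP-low OLGs of -0.04, 0.24, -0.23, -0.35, 0.58 and -0.02, with no call in edgeR.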

Additional observations from a re-analysis of the deposited data

Results flagged for a closer look

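Middle OLGs (EGFP N from 20 to 40) were on neither side of the tested comparisons. In tumor 1 they held luciferase and Cas9 transcripts at 79.6 CPM (95% exact Poisson interval 59.5 to 104, from 52 UMIs in 18 of 33 barcodes). That lay above T cells at 47.3 CPM (42.1 to 52.9), which were chosen without a limit on EGFP, and below EGFP-high OLGs at 230.4 CPM. In tumor 2 middle OLGs had 0 such UMIs, which allows up to 9.87 CPM.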

How the results depend on the processing

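Against EGFP-low OLGs, counts of genes higher and lower were 0 and 1. They were 128 and 144 without a filter on low counts, 30 and 96 with DESeq2 and 0 and 12 with EGFP-high at N of 80. The 1 lower call became 0 without the replicate block, with 3 classes in the fit, with doublets removed, with at least 1000 genes and mitochondrial share under 10%, and with members low in GBM genes. Against GBM cells, 839 higher and 476 lower became 203 and 11 without the replicate block. Higher calls were 556 with members of matched depth. Lower calls were 992 without a filter, 802 with DESeq2, 965 with OLG markers at N of 30 and 744 with members below a mix share of 0.5. The block uses tumors, each 1 animal, and changed, among the genes named, no call beside those above and those of 8 of the 12 largest falls against GBM cells (Cenpf, Emid1, Ube2c, Aspm, Igfbp2, Ccna2, Cdk1 and Sgol2a) and of Ptprz1, Fabp7 and Ccnd1. Against GBM cells, Emid1 was also lost at OLG markers of 30 (adjusted p = 0.0590) and Plk1 with members low in GBM genes (adjusted p = 0.0572), both in edgeR. Fits with OLG markers at 30, matched depth or members low in GBM genes fell short of 20 barcodes and were run with that minimum waived, a choice made after seeing the data, as was the limit on mix share. The fit with EGFP-low at N under 5 was not run (7 and 1 barcodes).

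With members low in GBM genes, log2 folds over EGFP-low OLGs were -0.15 for Fyn, -1.03 for Enpp6, -1.06 for Bmp4, -0.17 for Rnd2, -0.46 for Pdcd4, -0.038 for Sox4, -2.12 for Vcan, 0.20 for Cldn11 and 0.036 for Nkx6-2. With OLG markers at 30 they were -0.70 for Enpp6 and -0.14 for Rnd2, with matched depth -0.26 for Vim, and below a mix share of 0.5 0.058 for Cldn11, each of the other sign than in the main values. Vcan was 1 of the genes that set the limit on GBM genes, so its fold there follows from that limit. Genes within 1 SE of 0 were given no direction. The cause was not tested. Without replicate 1 or 2, values were the single tumors' folds, with no test.

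EGFP-high OLGs numbered 32 in tumor 1 at EGFP N of 80, 21 and 19 at OLG markers of 30, 29 and 9 at matched depth and 20 and 12 when low in GBM genes. The GBM share of their profile was 46.8% and 52.9% at EGFP N of 80, 13.2% and 27.8% at matched depth, 4.71% and 34.3% when low in GBM genes and 25.3% and 34.8% below a mix share of 0.5. It was 53.9% in tumor 1 with EGFP-low under 5, 32.8% in tumor 1 at OLG markers of 30, 54.2% in tumor 2 without doublets and 35.7% in tumor 2 by likelihood. The members' UMIs in the fit, 1581150 and 805588, limit the precision of low genes.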

Other observations

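Interferon and MHC class I genes were high in EGFP-high OLGs of tumor 2. The 22 genes of that list summed to 16130.5 and 29507 CPM in EGFP-high OLGs, 16819 and 14098 CPM in EGFP-low OLGs and 8038 and 13831 CPM in GBM cells, so tumor 1 showed no gap between the OLG classes. Over GBM cells all 22 had a fold above 0 in both tumors (28.6% over all genes) and 8 passed the adjusted threshold in edgeR's quasi-likelihood test (6.29% over all genes). H2-K1, a class I heavy chain, was at 2609 and 4342 CPM against 1907 and 1554 CPM in EGFP-low OLGs. B2m, its light chain, was at 3638 and 5293 CPM against 4150 and 2306 CPM. Gbp2, an interferon-induced GTPase, was at 370 and 1494 CPM against 311 and 83.3 CPM, and 49.8% of its UMIs in tumor 1 members came from 1 barcode.

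Median levels by chromosome were set against the mean of T cells and TAMs, after centring on the median autosome, as a description, and chromosomes 18 and 19 were chosen after their values were seen. In tumor 1, genes of chromosome 19 were at -0.18 (log2) in GBM cells, 0.21 in EGFP-low OLGs and -0.06 in EGFP-high OLGs, with 0.27 in members of mix share under 0.25 and -0.25 in those of 0.5 and over. Chromosome 18 was at -0.20 in GBM cells, 0.12 in EGFP-low OLGs and 0.11 in EGFP-high OLGs, with 0.19 and 0.15 in those ranges. In tumor 2, chromosome 19 was at -0.23 in GBM cells, 0.012 in EGFP-low OLGs and 0.15 in EGFP-high OLGs, with 0.11 in both ranges. Chromosome 18 of tumor 2 was at -0.16 in GBM cells, 0.15 in EGFP-low OLGs and -0.17 in EGFP-high OLGs, with -0.26 and -0.053 in the ranges. The other autosomes are not described, and no pattern over chromosomes was tested. Whether these values follow copy number or cell type was not tested.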
